A study of Homo sapiens with 7 samples.

Results

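The regions described here are 1508 promoter-sized stretches of H3K4me3 that lie close to another wide stretch of the mark. They were chosen from a table of 30840 regions as the autosomal regions with a width (end minus start) from 2000 bp to under 4000 bp that have another region of 2000 bp or more on the same chromosome within a gap of 10 kb. They make up 4.89% of the listed regions and 16.7% of the 9028 autosomal regions of that width, and the other 7520 are called lone regions below. The choice used width and position and no level of signal, although the authors drew the regions from the same kind of reads, so that width follows signal in part. The question was whether close neighbours share their level of H3K4me3 and their ratio between libraries.

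H3K4me3, the trimethylated form of lysine 4 on histone H3, marks the nucleosomes around active and poised transcription start sites and is written by the SET1 and MLL methyltransferase complexes. KDM5A is a demethylase of the JARID1 family that removes it. Start sites are not spread evenly: in gene-dense stretches, promoters of different genes lie a few kilobases apart, and genes that point away from each other can share a promoter with the mark on both sides.

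The mark was mapped by chromatin immunoprecipitation and sequencing in HCT116, a human colon cancer cell line, with both alleles of KDM5A knocked out (KDM5A-/-). All 3 groups carry this knockout and grew in medium with G418 and were fixed 24 h after transfection with 1 of 3 constructs: an empty vector, KDM5A in its wild-type form, or KDM5A in a mutant form. Each group has 1 H3K4me3 library, of 10713021, 10852411 and 9906508 reads in that order. No difference could therefore be tested, and the intervals of folds below cover counting error alone. The series' title concerns methylation of KDM5A by SMYD2. The mutated residues and the share of cells that took up each vector are not stated in the labels. Values are RPM, the reads of a region per 1000000 reads of its library. No region was matched to a gene, KDM5A included, since no annotation of hg19 was used, and no sequence is shown for the same reason. Regions are named by chromosome, start and end in hg19.

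The crowded regions formed 773 chains, each a run of regions of 2000 bp or more joined by gaps of 10 kb or less. Of these chains 631 held 2 regions, 102 held 3, and 40 held 4 or more, with 6 at most. The median chain spanned 12421 bp and the longest 56790 bp. The gap from a crowded region to its nearest wide neighbour was 4812 bp in the median (quartiles 2631 and 7337), from 15 bp to 9969 bp. The nearest neighbour was itself promoter-sized for 1287 members and a broad region of 4000 bp or more for 221, and 164 members had a wide neighbour within 10 kb on both sides. In 105 of the 960 close pairs of consecutive regions (10.9%), a region narrower than 2000 bp was listed inside the gap. Fragments were up to about 750 bp long, and 17 pairs had a gap no longer than that, so that a fragment could touch both regions.

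Crowding differed between chromosomes. On chromosome 19, 175 of 605 promoter-sized regions were crowded (28.9%), on chromosome 16 it was 121 of 436 (27.8%) and on chromosome 17 it was 156 of 571 (27.3%). The lowest shares were on chromosome 4, with 20 of 355 (5.63%), and chromosome 18, with 10 of 148 (6.76%). Crowded and lone regions had nearly the same width, with medians of 2678 bp and 2671 bp.

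Crowded regions carried somewhat less signal than lone ones, and more of them were weak. In the empty vector library they ran from 1.68 to 144.7 RPM with a median of 46.4, against a median of 49.8 RPM for lone regions. With wild-type KDM5A the range was 1.75 to 136.1 RPM and the median 41.8, against 45.1 for lone regions, and with mutant KDM5A 1.72 to 139.4 RPM and 39.5, against 42.0. The ranges of crowded and lone regions overlapped almost fully in each library. The upper quartiles were close, at 62.96 RPM for crowded and 63.1 RPM for lone regions with the empty vector, while the lower quartiles were 30.5 and 37.3 RPM. Below a mean of 20 RPM over the 3 libraries lay 275 crowded regions (18.2%) and 878 lone regions (11.7%). Per kb of region the medians with the empty vector were 17.8 RPM for crowded and 18.8 RPM for lone regions. The strongest crowded region, at chromosome 17, 62500532 to 62504479, had 144.7 RPM in the empty vector library, 136.1 with wild-type and 139.4 with mutant KDM5A.

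Weak regions were most frequent at the smallest gaps. Among promoter-sized regions with a gap under 1 kb, 35 of 93 were below 20 RPM (37.6%), and with a gap of 1 to 2 kb 39 of 171 (22.8%). The share was 16.1% at 2 to 5 kb and 16.2% at 5 to 10 kb. Among lone regions it was 14.2% at 10 to 20 kb, 9.90% at 20 to 50 kb and 10.0% at 50 to 100 kb, and it was higher again, at 23.5%, in the 336 regions with no wide neighbour within 500 kb. The median level followed the same course in each library, with 33.6 RPM under 1 kb, 50.03 RPM at 5 to 10 kb and 51.6 RPM at 50 to 100 kb with the empty vector.

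**Figure D1:**
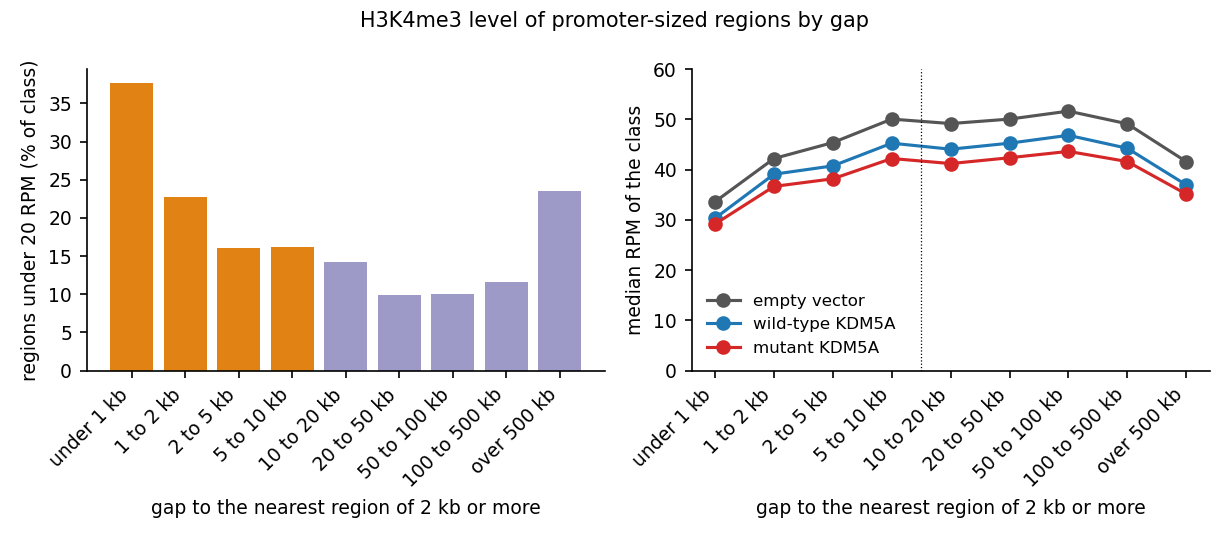
Promoter-sized autosomal regions by the gap to the nearest region of 2 kb or more (horizontal axis, 9 classes). Left, the share of regions with a mean below 20 RPM, in orange for crowded and violet for lone regions; right, the median RPM in each library, with a dotted line between crowded and lone. The share below 20 RPM was 37.6% under 1 kb and 9.90% at 20 to 50 kb, and the 3 libraries kept the same order in every class.

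Close neighbours shared little of their level. Over the 960 close pairs, each taken in both orders, Spearman's rho of the mean RPM was 0.013, and by library it was 0.013 with the empty vector, 0.013 with wild-type and 0.014 with mutant KDM5A. This value covers 2 kinds of pair. In the 712 pairs of crowded regions rho was 0.15, and neighbours differed 1.501-fold in the median, with 234 pairs (32.9%) over 2-fold apart. In the 248 pairs with a broad region the neighbours differed 2.25-fold in the median and rho was −0.40. The broad region had the higher mean RPM in 217 of the 248 (87.5%), and RPM counts all reads of a region, so width favours it. Since each pair entered in both orders, such an offset by itself lowers rho, in these pairs and in the pooled 0.013. Per kb of region, rho in the 248 pairs was 0.11. Pairs share a library, its depth and their stretch of chromosome, and regions are not replicates, so these correlations are descriptions.

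Per kb of region, which sets aside width, neighbours were more alike, with a rho of 0.21 over all close pairs and 0.22 over pairs of crowded regions. Close pairs then differed 1.39-fold in the median. Over all close pairs, those with a broad region included, rho per kb did not fall steadily with the gap. It was 0.021 under 1 kb (n = 56), 0.16 at 1 to 2 kb (n = 105), 0.25 at 2 to 5 kb (n = 316) and 0.20 at 5 to 10 kb (n = 483). Pairs of 2 crowded regions gave 0.19 (n = 38), 0.16 (n = 73), 0.26 (n = 242) and 0.19 (n = 359) in these classes. Consecutive promoter-sized regions farther apart gave 0.16 at 10 to 20 kb, 0.14 at 20 to 50 kb, 0.10 at 50 to 100 kb and 0.031 at 100 to 500 kb. Without the width, rho for the level was 0.12, 0.10, 0.067 and 0.014 in the same order, so crowded pairs were close to the pairs just beyond 10 kb. With the median of the wide regions within 5 Mb subtracted, rho per kb over the close pairs was 0.17.

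Neighbours with gaps under 2 kb were less alike in level than those farther apart. The median difference was 1.92-fold in the 56 pairs with a gap under 1 kb and 2.14-fold in the 105 pairs at 1 to 2 kb, against 1.54-fold at 2 to 5 kb and 1.64-fold at 5 to 10 kb. In pairs under 1 kb apart, 41.1% joined a region of 20 RPM or more to a region below it, and this share was 29.5%, 24.1% and 23.2% in the next 3 classes. The wider region of a pair had the higher mean RPM in 734 of 960 pairs (76.5%). RPM counts all reads of a region, so this share follows in part from the measure.

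**Figure D2:**
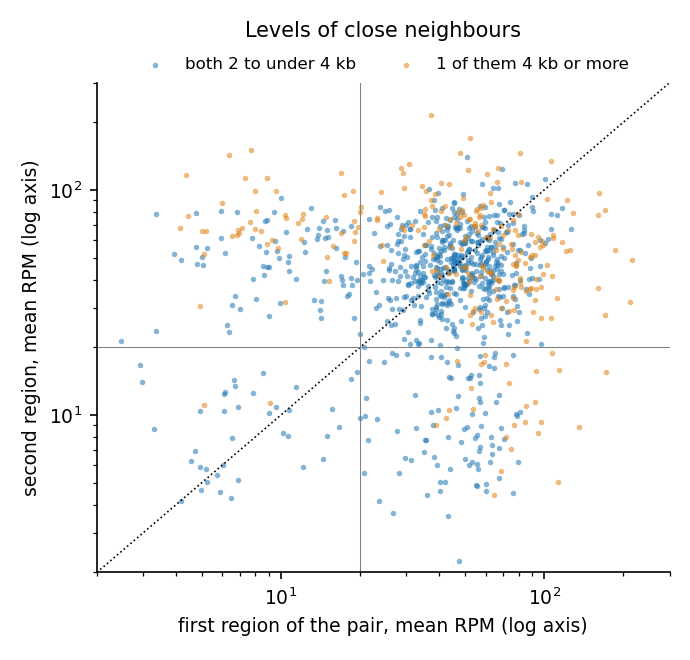
Mean RPM over the 3 libraries of the first and the second region of each of 960 close pairs, in genome order, both on log axes, in blue for 712 pairs of crowded regions and in orange for 248 pairs with a region of 4 kb or more. Grey lines stand at 20 RPM and the dotted line marks equal levels; 677 pairs lie in the upper right field, 242 pairs join a region of 20 RPM or more to a weaker one, and 41 pairs are below 20 RPM on both axes.

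The order of level within a pair was mostly the same from library to library. The same region was the higher in all 3 libraries in 873 of 960 pairs (90.9%). This held for 547 of 547 pairs that differed over 1.5-fold in mean RPM and for 326 of 413 pairs that differed less. The pairs over 1.5-fold apart were chosen by the mean of these same 3 libraries, so their constant order was nearly given by the choice.

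The largest differences in level were 22.5-fold to 26.7-fold. On chromosome 6, 159228131 to 159230243 measured 3.17 RPM in the empty vector library, 4.24 with wild-type and 5.65 with mutant KDM5A. Its neighbour across a gap of 1022 bp, 159231266 to 159241172, had 126.4, 117.95 and 104.98 RPM. Here the weak region had most signal with mutant KDM5A and the strong one least. On chromosome 12, the region at 10869177 to 10871406 had 3.17, 3.23 and 3.63 RPM, and its neighbour at 10873582 to 10877179 had 78.7, 78.3 and 78.2 RPM. Both of these crowded regions had nearly the same RPM in the 3 libraries. On chromosome 17, the region at 48127446 to 48129763 had 5.51, 6.63 and 6.86 RPM and lay 26 bp from a region of 12741 bp with 149.5, 143.7 and 134.7 RPM. The last of the 4 pairs, on chromosome 12, joined 54387262 to 54395419, with 127.3, 110.7 and 100.4 RPM, to 54402890 to 54405064, with 8.03, 3.41 and 3.63 RPM.

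The closest pairs in which both regions had 20 RPM or more were more equal. At chromosome 19, the regions 675575 to 678318 and 678820 to 681196 are 501 bp apart. The first had 41.7, 37.8 and 36.6 RPM in the empty vector library, wild-type and mutant KDM5A, and the second 34.3, 34.2 and 30.3 RPM. On chromosome 16, 11034267 to 11037260 had 56.1, 43.8 and 43.6 RPM and 11037789 to 11040862 had 49.0, 45.2 and 43.7 RPM across 528 bp. On chromosome 13, 22243540 to 22246494 had 39.6, 32.8 and 29.7 RPM and 22247037 to 22250108 had 43.6, 39.2 and 32.8 RPM across 542 bp. In each of these 6 regions the empty vector library was the highest and the mutant library the lowest.

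The chains with most members showed unequal levels side by side. On chromosome 1, the 6 regions from 153917001 to 153960029 had 56.3, 50.9, 67.2, 31.1, 61.8 and 30.5 RPM in the empty vector library, in genome order. With wild-type KDM5A they had 51.5, 41.7, 56.9, 24.6, 56.9 and 27.7 RPM, and with mutant KDM5A 42.7, 42.8, 55.3, 27.2, 53.9 and 22.6 RPM. All 6 were highest with the empty vector, and the regions at 67.2 and 31.1 RPM are 848 bp apart. On chromosome 3, the 6 regions from 50357390 to 50397517 had 44.3, 52.9, 62.7, 31.8, 55.1 and 44.9 RPM in the empty vector library. They had 47.1, 42.0, 53.6, 30.3, 47.9 and 35.1 RPM with wild-type and 37.6, 37.1, 54.7, 28.5, 47.5 and 33.6 RPM with mutant KDM5A. The first of them was the 1 region of this chain with more signal under wild-type KDM5A than under the empty vector. Of 3 chains with 5 crowded regions, the one with the largest summed RPM is given. On chromosome 11, its 5 regions from 63992417 to 64020656 had 68.1, 34.9, 79.1, 81.6 and 62.4 RPM in the empty vector library, 62.7, 32.6, 69.4, 64.9 and 54.5 RPM with wild-type and 54.9, 29.8, 69.4, 63.6 and 50.8 RPM with mutant KDM5A.

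**Figure D3:**
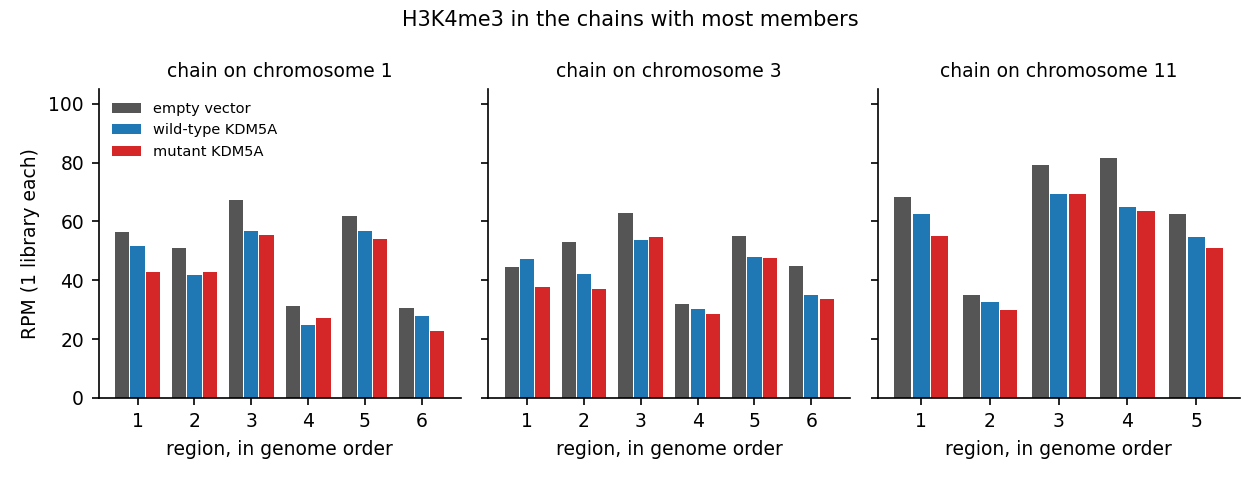
RPM (vertical axis) of each region, in genome order, of the 2 chains with 6 crowded regions and, of 3 chains tied at 5, the one with the largest summed RPM, with 1 bar per library (grey empty vector, blue wild-type KDM5A, red mutant KDM5A). Levels step up and down along each chain, from 30.5 to 67.2 RPM in the empty vector library on chromosome 1, while the grey bar is the highest in 16 of the 17 regions.

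The ratio between libraries was computed as log2 of RPM plus a pseudocount of 0.7 RPM. Comparing wild-type KDM5A with the empty vector asks what putting KDM5A back does to the mark. The median log2 ratio of the crowded regions was −0.14 (quartiles −0.22 and −0.052), a change of −9.27% at the median, and 1266 of 1508 were below 0. Over all listed regions the median was −0.11. At least 1.5-fold lower were 13 crowded regions (0.862%) and higher were 6 (0.398%). Over all listed regions 6.53% were lower and 6.23% higher, most of them far weaker than the crowded regions, and lone regions had 1.26% lower and 0.186% higher.

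For mutant KDM5A against the empty vector the median was −0.24 (quartiles −0.32 and −0.14), a change of −15.2%, and 1371 crowded regions were below 0. The median over all listed regions was −0.18. At least 1.5-fold lower were 28 crowded regions (1.86%) and higher were 7 (0.464%), where all listed regions had 8.15% and 6.61%, and lone regions 1.99% and 0.173%. The third comparison, mutant against wild-type KDM5A, asks whether the mutant left another level. The median was −0.093 (quartiles −0.18 and −0.0060), a change of −6.26%, with 11 regions (0.729%) lower and 1 (0.0663%) higher, against 5.45% and 5.19% of all listed regions and 0.319% and 0.0532% of lone regions. The 3 comparisons share libraries and are not independent of each other.

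The direction of these medians rests on scaling by total reads. With the listed regions at or above the median level scaled to a median ratio of 1, the medians of the crowded regions were 0.0013, −0.0031 and −0.00032, a shift of 0.14, 0.23 and 0.093. Of the regions past 1.5-fold, 68.4%, 80% and 91.7% were lower with RPM as deposited and 37.0%, 37.1% and 58.3% with that scaling. Loss of the mark everywhere and a lower share of reads on target cannot be told apart here. The crowded regions held 7.03% of all reads with the empty vector, 6.33% with wild-type and 5.93% with mutant KDM5A.

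As a group, crowded and lone regions had the same shift. Their medians differed by 0.0046 in the wild-type to empty vector comparison, by −0.0028 in the mutant to empty vector comparison and by −0.0030 for mutant against wild-type KDM5A, crowded minus lone. By level they differed in the weak classes. Crowded regions of 5 to 20 RPM had a median of −0.017 with wild-type KDM5A (n = 242), against −0.067 for lone regions of that level (n = 733), and −0.077 against −0.15 with mutant KDM5A. This was not particular to crowding, since lone regions of that level with a gap of 10 to 20 kb (n = 152) had 0.018 and −0.062. Below 5 RPM the crowded medians (n = 33) were 0.16 with wild-type and −0.056 with mutant KDM5A. Lone regions below 5 RPM (n = 145) had −0.090 and −0.21. Crowded regions of 20 to 50 RPM had −0.14 against −0.15 for lone ones, and −0.24 against −0.24. In the class of 50 RPM or more, the values were −0.16 against −0.15 and −0.26 against −0.23. No test of these differences was possible with 1 library a group.

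Neighbours shared little of the ratio. Over the 960 close pairs Spearman's rho between neighbours was 0.050 in the wild-type to empty vector comparison, 0.075 in the mutant to empty vector comparison and 0.060 for mutant against wild-type KDM5A. Both regions lay on the same side of the crowded regions' median in 487, 511 and 508 of the 960 pairs (50.7%, 53.2% and 52.9%). Consecutive promoter-sized regions 10 to 20 kb apart gave rho of 0.069, 0.11 and 0.078, and those 100 to 500 kb apart −0.014, 0.023 and 0.0072. Weak correlations of this size in values near counting noise are no finding. The SD of the difference in log2 ratio between close neighbours was 0.24, 0.27 and 0.20. Counting error alone would give an SD of 0.16, 0.17 and 0.17, and SDs do not add. In the 677 pairs with both regions at 20 RPM or more the SD was 0.16 in each comparison, against 0.12, 0.13 and 0.13 from counting.

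**Figure D4:**
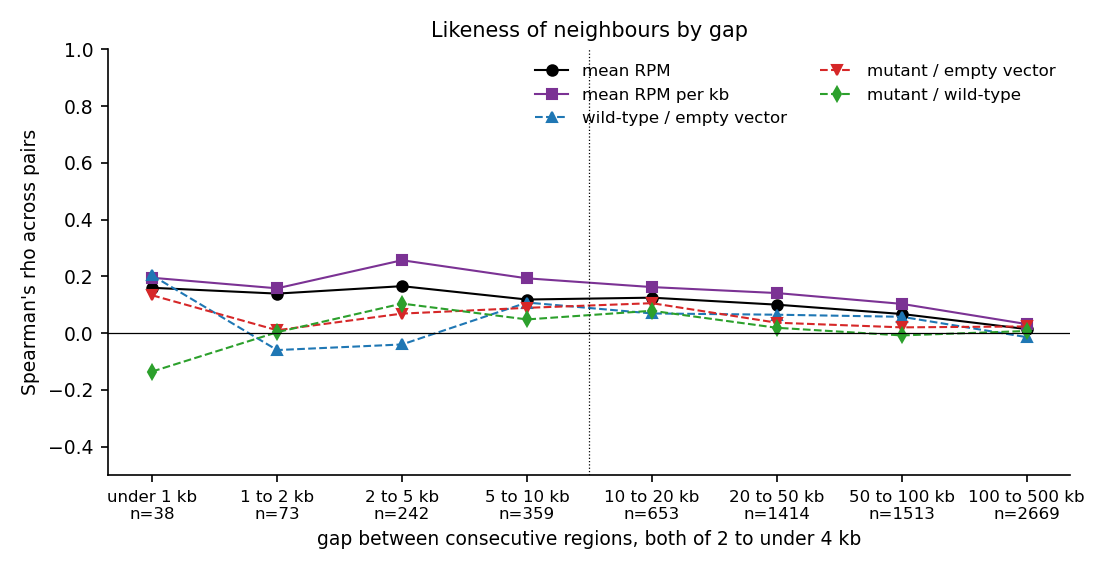
Spearman's rho between consecutive promoter-sized regions (vertical axis) by the gap between them, with the number of pairs n under each class and a dotted line at 10 kb. Solid lines show mean RPM (black) and mean RPM per kb (violet) and dashed lines the 3 log2 ratios; the level per kb is 0.19 under 1 kb, 0.16 at 1 to 2 kb, 0.26 at 2 to 5 kb and 0.031 at 100 to 500 kb, while the ratios stay between −0.14 and 0.20, with the widest swings in the class of 38 pairs.

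Where a crowded region was at least 1.5-fold lower than with the empty vector, its neighbour mostly was not that much lower. The 13 regions at least 1.5-fold lower with wild-type KDM5A all had a mean below 20 RPM, from 2.97 to 10.5, and a median log2 ratio of −0.85. Their nearest neighbours had a median of −0.25, and for 3 of the 13 regions the neighbour was also past 1.5-fold. Of all crowded regions 0.862% were that much lower, with a median of −0.14, and of all listed regions 6.53% were. With mutant KDM5A, the 28 lower regions had a median of −0.74 and their neighbours −0.32, and for 3 of the 28 the neighbour was past 1.5-fold. Here 1.86% of all crowded regions were that much lower, with a median of −0.24, and 8.15% of all listed regions were. Of the 28, 24 had a mean below 20 RPM.

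In each comparison those 3 regions belong to 1 chain on chromosome 2, where the middle one is the nearest neighbour of both others. The chain was singled out after its values were seen. Its regions at 105458799 to 105461740, 105468194 to 105470195 and 105471082 to 105474514 had 8.77, 6.63 and 10.2 RPM in the empty vector library. They had 4.42, 3.96 and 3.59 RPM with wild-type and 4.44, 3.13 and 5.05 RPM with mutant KDM5A. All 3 were lower with both forms of KDM5A, and the last was 2.83-fold lower with wild-type KDM5A (95% interval 1.95 to 4.19).

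Some other weak regions, picked for a low ratio after the values were seen, were low beside a stronger neighbour that was lowered much less. On chromosome 7, 27180967 to 27183224 measured 7.37 RPM in the empty vector library, 3.78 with wild-type and 2.12 with mutant KDM5A, 3.48-fold lower with the mutant (2.13 to 5.93). Its neighbour, 3776 bp away and 5827 bp wide, had 89.8, 69.2 and 71.5 RPM. On chromosome 12, the regions at 54378170 to 54381112 and 54402890 to 54405064 belong to 1 chain and had 13.3 and 8.03 RPM in the empty vector library, 7.46 and 3.41 with wild-type and 5.85 and 3.63 with mutant KDM5A, while the region of 8158 bp between them had 127.3, 110.7 and 100.4 RPM. A weak region on chromosome 5 (87961613 to 87963921) measured 5.13, 1.75 and 2.02 RPM, 2.93-fold lower with wild-type KDM5A (1.71 to 5.23), and its neighbour had 16.4, 13.7 and 11.9 RPM. The log2 ratios of these neighbours to the empty vector ran from −0.20 to −0.44, against −0.77 to −1.52 for the weak regions themselves. Since the weak regions were picked for their ratio and the neighbours were not, this contrast follows in part from the choice. The intervals leave the picking out of account. Not every case was such: on chromosome 16, 3237409 to 3239455 had −0.63 with wild-type KDM5A and its neighbour −0.51.

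The same contrast was the other way round for most weak regions. In the 242 pairs that joined a region of 20 RPM or more to a weaker one, the stronger regions had a median log2 ratio of −0.14 with wild-type KDM5A and the weaker ones −0.00067, and the weaker region had the higher ratio in 165 pairs (68.2%). With mutant KDM5A the medians were −0.26 and −0.027, and the weaker region had the higher ratio in 168 pairs (69.4%). For mutant against wild-type KDM5A they were −0.12 and −0.067. The median difference within a pair, weaker minus stronger, was 0.15 and 0.22 against the empty vector, and 0.085 and 0.16 with the trend of ratio on level removed. The ratio of weak regions therefore stood higher than that of their strong neighbours on either scale. Background reads, whose share is larger in a weak region, were not analysed here, and their part was not tested.

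The ratio of crowded regions beside strong and weak neighbours differed in no single direction over the level classes. Against the empty vector its median was higher beside a strong neighbour in the classes below 50 RPM and lower in the class above. Below 5 RPM the medians with wild-type and mutant KDM5A were 0.20 and 0.022 beside a strong neighbour (n = 21). Beside a weak one (n = 12) they were 0.10 and −0.32. Those of 5 to 20 RPM beside a neighbour of 20 RPM or more (n = 182) had a median of 10.2 RPM in the empty vector library, 9.95 with wild-type and 9.79 with mutant KDM5A, and median log2 ratios to the empty vector of −0.0017 and −0.067. Those beside a weaker neighbour (n = 60) had 9.15, 8.71 and 8.33 RPM and ratios of −0.10 and −0.13. The quartiles overlapped, from −0.16 to 0.15 and from −0.30 to 0.093 with wild-type KDM5A. In the class of 20 to 50 RPM the medians were −0.14 beside a strong neighbour (n = 610) and −0.17 beside a weak one (n = 82) with wild-type KDM5A. With mutant KDM5A they were −0.24 and −0.25. At 50 RPM or more the order was the other way, with −0.17 beside a strong neighbour (n = 455) and −0.13 beside a weak one (n = 86), and for mutant KDM5A −0.26 and −0.25.

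Among regions of 5 to 20 RPM the ratio also went along with isolation. With a wide neighbour within 10 kb the medians were −0.017 for wild-type and −0.077 in the mutant to empty vector comparison, and 7 and 17 of the 242 regions were at least 1.5-fold lower (2.89% and 7.02%). Of all 4239 listed regions of that level 3.30% and 6.63% were lower, so the crowded shares were near the background. At 10 to 20 kb (n = 152) the medians were 0.018 and −0.062, at 100 to 500 kb (n = 198) −0.14 and −0.22, and over 500 kb (n = 60) −0.47 and −0.63. In this last class 26 and 32 of the 60 regions were at least 1.5-fold lower (43.3% and 53.3%) and 0 were higher. Their median RPM was 13.5 with the empty vector, 7.92 with wild-type and 7.07 with mutant KDM5A, against 9.89, 9.58 and 9.64 in crowded regions. With wild-type and mutant KDM5A the medians of the most isolated regions were thus −0.45 and −0.55 relative to those of the crowded ones. The level of each class against 0 rests on scaling by total reads, and the difference between classes rests on it much less, since a scaling moves the ratios of both alike.

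**Figure D5:**
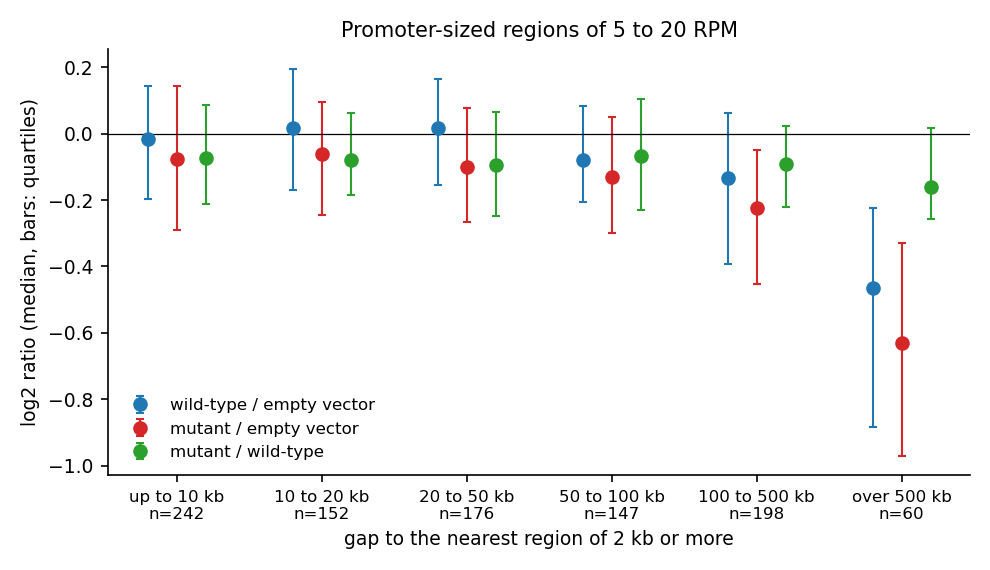
Median log2 ratio (vertical axis; bars, quartiles over regions) of promoter-sized regions with a mean of 5 to 20 RPM, by the gap to the nearest region of 2 kb or more, with the number of regions n under each class. For both forms of KDM5A against the empty vector (blue and red) the medians lie between −0.10 and 0.018 up to 50 kb and reach −0.47 and −0.63 over 500 kb, while mutant against wild-type KDM5A (green) stays between −0.16 and −0.069.

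Among crowded regions of 20 RPM or more, single ratios ran close to the shared shift. For wild-type KDM5A the 3 lowest were at chromosome 17, 45907311 to 45909959, chromosome 5, 175968171 to 175971874, and chromosome 15, 76627880 to 76631442. The first had 69.1 RPM in the empty vector library and 48.9 with wild-type KDM5A, 1.41-fold lower (1.26 to 1.58), and its neighbour at 45897277 to 45899841 had 65.2 and 52.7 RPM. The second had 67.9 and 49.1 RPM and its neighbour 93.2 and 74.7 RPM. The third had 47.0 and 34.2 RPM and its neighbour 30.2 and 28.1 RPM. In all 3 pairs both regions were lower, and for the third neighbour the interval of the ratio includes 1. The 3 highest were at chromosome 16, 29830508 to 29834024 (36.6 and 44.4 RPM, 1.21-fold higher, 1.06 to 1.39), chromosome 17, 80254136 to 80256678 (27.4 and 33.0 RPM), and chromosome 8, 145697203 to 145699318 (35.4 and 42.3 RPM). Each of these 3 had a stronger neighbour within 3 kb that was lower with wild-type KDM5A, at 59.8 and 52.6 RPM, 77.2 and 64.4 RPM, and 110.3 and 100.1 RPM. Regions named for an extreme ratio were picked from many, which the intervals leave out of account.

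For mutant KDM5A the 3 lowest of the strong crowded regions were 1.52-fold to 1.53-fold lower than the empty vector. At chromosome 11, 2904637 to 2907168, the values were 56.4 RPM in the empty vector library and 36.8 with mutant KDM5A (1.53-fold lower, 1.34 to 1.75), beside a neighbour with 25.5 and 20.4 RPM. At chromosome 16, 764172 to 766991, they were 55.2 and 36.1 RPM beside 51.5 and 46.7 RPM, and at chromosome 9, 132250231 to 132253958, 28.9 and 19.0 RPM beside 38.6 and 32.4 RPM. In all 3 pairs the neighbour was lower too, by less, and for the chromosome 16 neighbour the interval of the ratio includes 1. The 3 highest were at chromosome 10, 88717949 to 88720874 (20.6 and 25.9 RPM), chromosome 19, 48828025 to 48830365 (19.4 and 22.5 RPM), and chromosome 12, 53845407 to 53847411 (30.2 and 33.5 RPM). Of these, the first had an interval above 1 (1.26-fold, 1.05 to 1.51) and the other 2 had intervals that include 1. Their neighbours were all lower with mutant KDM5A, at 81.96 and 68.7 RPM, 33.98 and 27.96 RPM, and 50.9 and 41.2 RPM.

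Between mutant and wild-type KDM5A the lowest strong crowded region was at chromosome 19, 1265115 to 1267616, with 27.8 RPM with wild-type and 19.1 with mutant KDM5A (1.46-fold lower, 1.21 to 1.76). Its neighbour, 869 bp away, had 45.8 and 44.6 RPM. The next were at chromosome 17, 1612730 to 1614759 (27.6 and 20.1 RPM), and chromosome 16, 1138257 to 1141721 (34.7 and 25.6 RPM). The highest were at chromosome 6, 150065884 to 150067956 (21.8 and 27.1 RPM, 1.24-fold higher, 1.04 to 1.48), chromosome 1, 156709426 to 156711604 (25.3 and 30.5 RPM), and chromosome 1, 249118711 to 249121645 (49.1 and 58.2 RPM). For each of these 6 regions the interval of the neighbour's ratio includes 1.

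No pair with both regions at 20 RPM or more had ratios 1.5-fold apart in any comparison (0 of 677), and over all close pairs 32, 46 and 18 did. The widest gaps in ratio among strong pairs were 0.52 on the log2 scale for wild-type KDM5A, 0.57 for mutant KDM5A and 0.49 for mutant against wild-type KDM5A. The first was at chromosome 1, where 43813634 to 43815699 had 25.2 RPM in the empty vector library and 28.1 with wild-type KDM5A and 43823246 to 43826579 had 66.6 and 51.3 RPM. The next 2 for wild-type KDM5A were the chromosome 17 pair at 80249227 to 80256678 and, on chromosome 16, 89306957 to 89308981 (51.7 and 40.5 RPM) beside 89313156 to 89315214 (25.6 and 28.5 RPM). In all 3 the weaker region was higher with wild-type KDM5A and the stronger one lower. For the weaker regions of chromosomes 1 and 16 the interval of the ratio includes 1 (0.94 to 1.32 and 0.94 to 1.31). For mutant KDM5A the widest gaps were in the pairs of chromosomes 10 and 19 just named and in a pair on chromosome 6. The latter joined 35694015 to 35696467 (24.5 and 25.6 RPM) to 35698513 to 35700531 (29.5 and 21.9 RPM). For mutant against wild-type KDM5A they were the chromosome 19 pair at 1265115 to 1272644, the regions 62768830 to 62770944 (37.8 RPM with wild-type, 40.7 with mutant) and 62775902 to 62778171 (45.6 and 35.1 RPM) on chromosome 17, and 67216345 to 67218638 (29.0 and 22.4 RPM) beside 67225552 to 67228051 (52.4 and 56.2 RPM) on chromosome 16.

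By chromosome, the median log2 ratio of the crowded regions was below 0 on each of the 19 chromosomes with at least 20 of them, with RPM as deposited. It ran from −0.18 on chromosome 5 to −0.10 on chromosome 8 in the wild-type to empty vector comparison. For mutant KDM5A against the empty vector it ran from −0.29 on chromosome 15 to −0.17 on chromosome 20. The median level ran from 35.0 RPM on chromosome 4 to 50.1 RPM on chromosome 10.

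At the limits of the choice the regions just inside and just outside were as follows. The narrowest crowded region, of 2000 bp at chromosome 11, 64576724 to 64578723, had 42.6, 37.9 and 33.7 RPM in the empty vector library, wild-type and mutant KDM5A. The widest region just short of it, of 1999 bp at chromosome 3, 40493755 to 40495753, had 30.2, 24.8 and 25.6 RPM. At the upper limit a crowded region of 3999 bp at chromosome 12, 56914868 to 56918866, had 19.1, 16.3 and 14.8 RPM and a region of 4005 bp at chromosome 14, 105153681 to 105157685, had 73.8, 66.9 and 53.6 RPM. The largest gap inside the limit was 9969 bp, for a region with 53.95, 47.5 and 43.5 RPM at chromosome 19, 36485543 to 36488222. The smallest gap outside it belonged to a region with 40.7, 35.0 and 32.8 RPM at chromosome 6, 26171299 to 26174343.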

How the data were processed

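The analysis used the 3 H3K4me3 libraries. Signal of the input and IgG libraries was not used here, and nothing was subtracted. The deposited RPM values (reads of a region per 1000000 reads of the library) were made by the authors. Per the submitters' processing notes, the build was hg19 and the tools were deepTools 3.5.6, HOMER, MACS2, MACS and Bowtie2 2.5.4. Settings for peak calling, duplicates and counting are not stated in the labels. The empty vector column is headed H3K4me4, read as a slip for H3K4me3.

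Whole reads were recovered from the RPM step of each library, for 100% of values within 0.02 reads, where a step of 0.1 RPM, close to the mutant library's own, gave whole multiples for 3.79% of its values. They gave depth and exact conditional (Clopper-Pearson) 95% intervals of single folds. Counting SDs come from Poisson error by the delta method. Ratios used log2 with a pseudocount of 0.7 RPM, which understates changes of weak regions, over the whole table. A gap is the next start minus the previous end, and starts are printed 1-based. Named were the strongest region, the chains with most members, the closest strong pairs, the extreme ratios at 20 RPM or more and the widest differences within pairs. Weak regions named for a low ratio were picked after their values were seen. The functions were tested on simulated data. Members, classes and rules were chosen with earlier results of these data known. Alternatives were other pseudocounts, level filters, gaps, widths, scalings, pair definitions and trend removal. Versions were statsmodels 0.14.6, scipy 1.17.1, pandas 2.3.3 and numpy 2.4.6 under Python 3.11.15.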

Additional observations from a re-analysis of the deposited data

How the results depend on the processing

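Of 126 alternatives, 94 left the value within its interval or, for a count, within 1.5 times. For medians and correlations this interval treats regions or pairs as independent, which they are not. It served to label moves and measures no spread between libraries. Scaling to a median ratio of 1 turned the median of crowded regions with wild-type KDM5A against the empty vector to 0.0013 and moved the other 2 medians to −0.0031 and −0.00032; with equal sums over the regions the 3 medians were −3.9e-05, −0.0071 and −0.0031. These scalings remove a shift shared by all regions by construction. A pseudocount of 3.5 RPM gave medians of −0.22 for mutant against the empty vector and −0.085 for mutant against wild-type KDM5A. It left 7, 13 and 0 regions past 1.5-fold, against 19, 35 and 12, and a 2-fold threshold left 3, 5 and 0. With listed regions at or above the median level only, 12 regions passed for wild-type against the empty vector and 7 for mutant against wild-type. With gaps up to 5 kb, 21 passed for mutant against the empty vector and 6 for mutant against wild-type. From a width of 2.5 kb on, the wild-type median was −0.15 and 6, 10 and 4 regions passed. Fewer regions enter these 3 settings.

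The correlation of level between neighbours was 0.15 with both regions promoter-sized, 0.084 as Pearson's r of log2 levels, 0.21 per kb and 0.17 per kb with the median within 5 Mb subtracted, against 0.013. At 5 to 20 RPM alone, crowded minus lone medians were 0.050, 0.074 and 0.019. With the lowess trend removed, weaker minus stronger regions of mixed pairs differed by 0.085 and 0.16. With level classes set by the empty vector library, the most isolated middle regions stood at −0.78 relative to crowded ones with mutant KDM5A, against −0.55. The cause of these moves was not tested. The alternatives on middle regions, mixed pairs and local medians were chosen after seeing the data. No paired analysis was possible because each group has 1 library. For the same reason no library could be left out. Counting error limits weak regions most.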
